A study of Mus musculus with 16 samples.

Results

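Gcnt1, Rasgrp3, Arhgap18 and Abcd2 are 4 genes selected on the size of their fall in signal when wild-type macrophages were given LPS, the endotoxin of Gram-negative bacteria. They are 4 of the 19937 genes that could be named by a single symbol among 34760 probe sets, and each is measured by 1 probe set. The pick used the LPS arrays and the unstimulated arrays of wild-type cells, so the fall in those arrays is a description here and was given no test. The LPS response of NFAT5 knockout cells comes from arrays that the rule of the pick did not use, and it was tested. The 4 genes were chosen with earlier results of these data known, so their choice may not be fully independent of the knockout arrays.

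Total RNA of bone-marrow derived macrophages was hybridised to 16 single-colour Affymetrix arrays in a design of 2 genotypes and 2 treatments, with 4 arrays in each group. The groups were NFAT5 KO macrophages with LPS, NFAT5 KO macrophages left unstimulated, wild-type (WT) macrophages with LPS and WT macrophages left unstimulated, all on the 129sv background. NFAT5 is a transcription factor known for the response to hypertonic stress. The sources used here do not give the dose and duration of LPS, the deleted part of the Nfat5 gene or the age of the mice. They also do not say whether replicate arrays represent different animals or cultures. The p-values therefore reflect the spread of these samples alone, and that spread may be technical.

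The 4 genes encode proteins of separate pathways. Gcnt1 is the Golgi enzyme that starts a branch on mucin-type O-glycans, a branch on which leukocytes carry ligands for selectins. Rasgrp3 is an exchange factor that diacylglycerol recruits to membranes to load Ras and Rap with GTP, while Arhgap18 acts in the opposite sense on another small GTPase, RhoA, by speeding GTP hydrolysis. Abcd2 is a transporter that carries fatty acyl-CoA into peroxisomes for oxidation.

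The sequences before the transcription starts are shown for 3 of the 4 genes and for Rasgrp1, a relative of Rasgrp3 with an LPS response of the opposite sign. Each window is the 250 bases before the most upstream of the starts searched (RefSeq, GRCm38.p6), read 5′ to 3′ on the gene's strand. For Rasgrp3 and Arhgap18 the annotated gene begins inside the window, at 75435870 and 26772408, so an annotated start lies further upstream. Capitals mark GAGGAA or its complement TTCCTC, a core of sites bound by the macrophage factor PU.1. Abcd2 has no entry in the table of promoters used here.
Gcnt1, chr19:17372845-17373094, minus strand: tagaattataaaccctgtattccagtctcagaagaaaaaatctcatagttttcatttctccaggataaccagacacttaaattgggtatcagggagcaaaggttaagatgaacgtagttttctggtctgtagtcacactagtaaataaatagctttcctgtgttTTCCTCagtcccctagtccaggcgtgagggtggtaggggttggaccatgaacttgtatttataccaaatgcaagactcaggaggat
Rasgrp3, chr17:75435655-75435904, plus strand: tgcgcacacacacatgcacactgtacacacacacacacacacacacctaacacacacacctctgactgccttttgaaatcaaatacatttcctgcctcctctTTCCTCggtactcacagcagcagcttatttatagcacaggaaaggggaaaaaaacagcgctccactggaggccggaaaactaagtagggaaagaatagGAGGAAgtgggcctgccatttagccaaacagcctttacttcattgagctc
Arhgap18, chr10:26772262-26772511, plus strand: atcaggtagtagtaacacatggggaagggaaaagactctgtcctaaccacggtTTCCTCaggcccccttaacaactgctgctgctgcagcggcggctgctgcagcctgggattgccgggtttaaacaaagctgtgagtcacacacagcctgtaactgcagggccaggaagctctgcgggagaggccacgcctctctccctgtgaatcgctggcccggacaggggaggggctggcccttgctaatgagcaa
Rasgrp1, chr2:117342878-117343127, minus strand: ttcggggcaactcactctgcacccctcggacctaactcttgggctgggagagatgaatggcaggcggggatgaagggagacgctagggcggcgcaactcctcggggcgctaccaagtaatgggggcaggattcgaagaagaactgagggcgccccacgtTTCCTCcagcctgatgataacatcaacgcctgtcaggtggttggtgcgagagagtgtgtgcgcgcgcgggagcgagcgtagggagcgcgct

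GAGGAA, searched on both strands, stood once in the Gcnt1 window, at 2 places in the Rasgrp3 window and once in each of the Arhgap18 and Rasgrp1 windows. The motif was present in 23.3% of all 32851 promoter windows of that length, so it is common. A further start of Gcnt1 held 2 matches, and the remaining start of Gcnt1 and that of Rasgrp3 held none. The AP-1 motif TGANTCA lay at 1 palindromic place in the Arhgap18 window, from -117 to -111, and was present in 6.75% of all windows. TATAAA stood at 2 places in the Gcnt1 window and at 1 in the Rasgrp3 window, against 12.4% of all windows with at least 1. Neither TGGAAA, the core of NFAT family sites (18.6% of all windows), nor the NF-kappaB consensus (7.25%) was in any window searched for these 3 genes or Rasgrp1. These letters describe the windows only and are no evidence of binding.

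The array signals were log2 values after RMA, a method that corrects the background, makes the arrays' distributions alike and summarises the probes of each probe set, so a difference of 1 is a doubling. Array medians were 6.76 to 6.86. Precision is limited by the number of arrays, and the deposited table holds no detection calls, so whether a low signal lay above the background was not determined. Nfat5, the targeted gene, averaged 0.67 lower on the log2 scale in KO than in WT arrays over both treatments (limma adjusted p = 0.00296). Its KO minus WT difference was -0.98 with LPS (limma adjusted p = 0.00169) and -0.36 unstimulated, which was not called (adjusted p = 0.602). With LPS its signal was 8.67 to 9.29 in KO arrays, against 9.80 to 10.56 in WT arrays, and unstimulated it was 8.93 to 9.20 in KO arrays, against 9.15 to 9.67 in WT arrays. All 8 macrophage markers were measured, with a mean signal between 12.02 and 12.40 in every array. Single markers moved with LPS, with 2 called lower and 3 higher in KO cells and 3 lower and 1 higher in WT cells. Mertk changed by -1.15 in KO and -1.62 in WT cells, Cd68 by -0.42 in KO and -0.57 in WT cells, and Cd14 by 2.03 in KO and 1.04 in WT cells, all called by limma. Csf1r changed by -0.49 in WT cells, which was called, and by -0.17 in KO cells, which was not. Adgre1 was 0.28 and Fcgr1 0.51 higher in KO cells, both called. Their changes of 0.10 and -0.27 in WT cells were not called. Xist exceeded Kdm5d in 10 arrays, namely all WT arrays and the KO arrays numbered 4, and lay below it in the 6 KO arrays numbered 1 to 3. Xist marks female cells and Kdm5d is Y-linked, so by these transcripts sex differed between the genotypes for the arrays numbered 1 to 3, and there sex and genotype cannot be told apart. On the second principal component the arrays numbered 4 had the lowest scores of 3 groups, at -31.4 in KO LPS, -24.4 in KO unstimulated and -18.5 in WT LPS cells, against scores of 0.727 or more in the other arrays of those groups. The values of the 4 genes without the arrays numbered 4 are therefore given beside the results.

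In KO macrophages all 4 genes fell with LPS, by 9.26-fold to 14.4-fold. Calls are limma results at a Benjamini-Hochberg adjusted p below 0.05 over all 19937 genes. By that rule 12.7% of all genes were lower and 12% were higher with LPS in KO cells, against 16.8% lower and 14% higher in WT cells. In KO cells every LPS array lay below every unstimulated array for each of the 4 genes, which was so for 12.4% of all genes. The same held in WT cells, where the share of all genes was 16.2%, and nothing is read from it there because that fall selected the genes. In bulk RNA, fewer cells of a type and less RNA per cell cannot be told apart.

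**Figure D1:**
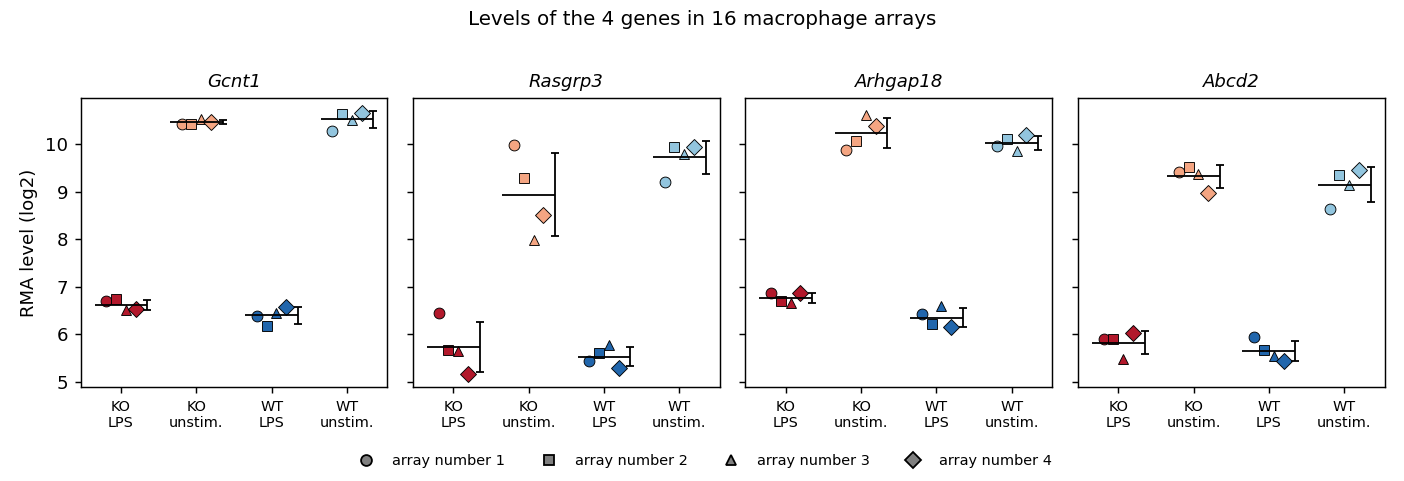
Log2 signal (vertical axis) of Gcnt1, Rasgrp3, Arhgap18 and Abcd2 in each of 16 arrays, with 4 arrays per group in the order KO LPS, KO unstimulated, WT LPS and WT unstimulated; points are arrays, horizontal lines are group means and vertical bars are SDs. For each gene the LPS arrays lie below the unstimulated arrays of the same genotype, and the KO unstimulated arrays of Rasgrp3 are the most spread, from 7.99 to 9.97; signals of different genes are not compared, since probe sets differ in brightness.

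Gcnt1, the O-glycan branching enzyme, had signals of 6.69, 6.73, 6.50 and 6.54 in KO LPS arrays 1 to 4, against 10.43, 10.43, 10.53 and 10.46 in KO unstimulated arrays. In WT cells it had 6.39, 6.17, 6.46 and 6.57 with LPS, against 10.28, 10.64, 10.50 and 10.66 unstimulated. The 2 treatments were thus separated by a wide gap in both genotypes, and the arrays within a group were close together. In KO cells it fell by 3.85 on the log2 scale (SE 0.10), or 14.4-fold, with an adjusted p of 1.32e-14 by limma. It was the steepest fall of all genes in KO cells. In WT cells, where the gene was picked, the group means differed by -4.12, or 17.4-fold, which ranked 4 among all falls.

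Rasgrp3, the exchange factor for Ras and Rap, has been described in mouse macrophages as a brake on cytokine production after Toll-like receptor signals. Its signals were 6.44, 5.66, 5.64 and 5.16 in KO LPS arrays, against 9.97, 9.29, 7.99 and 8.50 in KO unstimulated arrays. In WT cells they were 5.44, 5.61, 5.77 and 5.30 with LPS, against 9.21, 9.94, 9.79 and 9.94 unstimulated. The KO unstimulated arrays were the most scattered group of any of the 4 genes, with a mean of 8.94 ± 0.87 (SD, n = 4), and array 1 was the highest in both KO groups. In KO cells it fell by 3.21 on the log2 scale (SE 0.33), or 9.26-fold, with a limma adjusted p of 4.22e-07, and it ranked 9 among falls in KO cells. In WT cells the means differed by -4.19, or 18.2-fold, which ranked 2.

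Arhgap18 is a GTPase-activating protein for RhoA, which controls actin contraction and cell shape. It had signals of 6.86, 6.69, 6.66 and 6.86 in KO LPS arrays, against 9.88, 10.08, 10.61 and 10.37 in KO unstimulated arrays. In WT cells it had 6.43, 6.22, 6.59 and 6.15 with LPS, against 9.96, 10.10, 9.86 and 10.18 unstimulated. The treatments did not overlap in either genotype. With LPS the KO arrays lay above the WT arrays, from which nothing is read, since the WT LPS arrays took part in the selection of the gene. Arhgap18 fell by 3.46 in KO cells (SE 0.14), or 11.03-fold (limma adjusted p = 3.13e-12), and ranked 6. The WT means differed by -3.68, or 12.8-fold, which ranked 8.

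Abcd2, the peroxisomal transporter, had signals of 5.90, 5.89, 5.47 and 6.03 in KO LPS arrays, against 9.42, 9.53, 9.37 and 8.98 in KO unstimulated arrays. In WT cells it had 5.93, 5.67, 5.54 and 5.43 with LPS, against 8.64, 9.35, 9.15 and 9.45 unstimulated. LPS and unstimulated arrays did not overlap, and the KO and WT arrays of a treatment did. Abcd2 fell by 3.50 in KO cells (SE 0.17), or 11.3-fold (limma adjusted p = 4.12e-11), and ranked 4. The WT means differed by the same -3.50, which ranked 9.

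An exact two-sided permutation test of the KO arrays alone gave p = 0.0286 for each of the 4 genes. This is the smallest value that 4 against 4 unpaired arrays allow. The test took the arrays as independent. Same-numbered KO arrays of the 2 treatments match in sex transcripts, and if they are paired the smallest possible p is larger. Without the arrays numbered 4 the differences in KO cells were -3.82 for Gcnt1, -3.17 for Rasgrp3, -3.45 for Arhgap18 and -3.68 for Abcd2, all called by limma. Leaving out any single KO array changed none of these calls.

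The falls in KO cells amounted to 93.3% of those in WT cells on the log2 scale for Gcnt1, 94.1% for Arhgap18, 99.9% for Abcd2 and 76.6% for Rasgrp3. With LPS the group means of the 4 genes were 5.53 to 6.77, near or below the array medians of 6.76 to 6.86. At that level a further fall may not be seen, so the fold sizes and percentages may be bounded by the background, which was not tested. The differences in response, KO minus WT, were 0.28 for Gcnt1, 0.22 for Arhgap18, 0.00 for Abcd2 and 0.98 for Rasgrp3, and were given no test because the WT response chose the genes. Among the other 154 genes that fell at least 4-fold in WT cells, the median change was -1.91 in KO cells and -2.39 in WT cells, and the KO change was 77.6% of the WT change at the median, with quartiles of 69.7% and 87.3%. Genes were also taken by their fall in KO cells instead of WT cells. Among the other 80 genes that fell at least 4-fold in KO cells, the median was -2.30 in KO cells and -2.55 in WT cells.

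**Figure D2:**
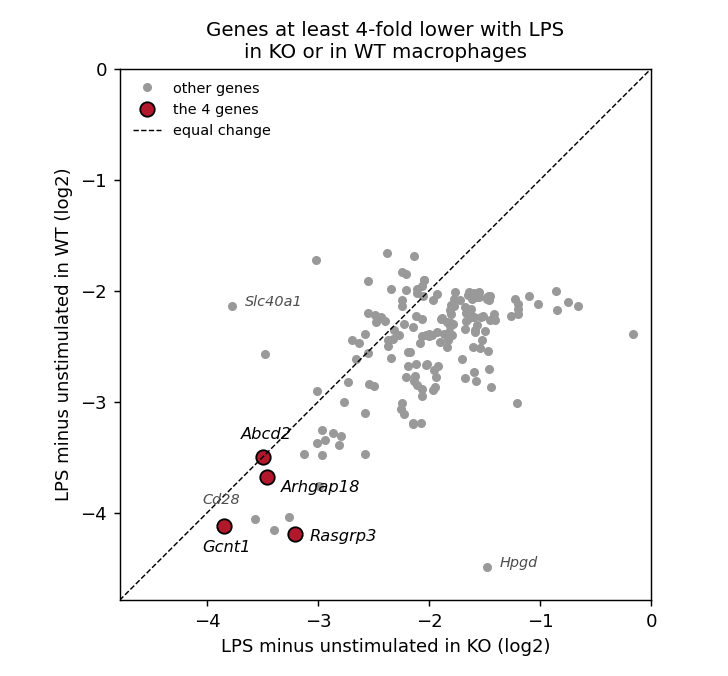
LPS minus unstimulated difference (log2) in KO cells (horizontal axis) and in WT cells (vertical axis) for the 170 genes at least 4-fold lower with LPS in either genotype, 1 point per gene, with the 4 genes in red, 3 others named and the dashed diagonal marking equal change. Abcd2 lies on the diagonal and Rasgrp3 below it, at -3.21 in KO cells and -4.19 in WT cells.

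The other genes of the first 9 falls in WT cells were Hpgd, Rnf144b, Cd28, Slc46a3 and Rgs2. Hpgd, which breaks down prostaglandins, had the largest fall in WT cells, with differences of -1.48 in KO cells and -4.49 in WT cells, and ranked 220 among falls in KO cells. Rnf144b, a ubiquitin ligase, had -3.40 in KO cells and -4.16 in WT cells, and Cd28, a costimulatory receptor best known on T cells, had -3.57 in KO cells and -4.05 in WT cells. Slc46a3 had -3.26 in KO cells and -4.04 in WT cells, and Rgs2, which shortens G-protein signals, had -2.99 in KO cells and -3.76 in WT cells. Just below Abcd2 came Nxpe5, with -2.97 in KO cells and -3.48 in WT cells, and Rcbtb2, with -3.13 in KO cells and -3.47 in WT cells. Slc40a1, the iron exporter ferroportin, had the fall next to Gcnt1 in KO cells, with -3.78 there and -2.13 in WT cells, where it ranked 128.

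Averaged over both treatments, none of the 4 genes passed the limma test for genotype, a test that is uncorrelated with the WT contrast of the pick. By it 1.27% of all genes were lower and 0.843% higher in KO than in WT cells. Gcnt1 differed by 0.08 (95% interval -0.07 to 0.23, adjusted p = 0.858) and Abcd2 by 0.18 (-0.08 to 0.43, adjusted p = 0.761). Rasgrp3 differed by -0.29 (-0.78 to 0.19, adjusted p = 0.83). Arhgap18 was 0.32 higher in KO cells (0.11 to 0.52), with an unadjusted p of 0.0048 and an adjusted p of 0.131.

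The genotype values of all 4 genes depended on which arrays were used. With single arrays left out they ranged from 0.043 to 0.112 for Gcnt1, -0.47 to -0.14 for Rasgrp3, 0.25 to 0.37 for Arhgap18 and 0.093 to 0.236 for Abcd2. For Rasgrp3 the difference was -0.79 over the 10 arrays with Xist above Kdm5d. There each KO group holds only its array numbered 4, so this value rests on those arrays. Over arrays numbered 1 to 3 the difference was -0.13, and there all KO arrays have Xist below Kdm5d and all WT arrays have it above. Arhgap18 passed the threshold without KO unstimulated array 1 (0.37, limma adjusted p = 0.0418), and not when any other single array was left out. Within a treatment, the KO minus WT values of Rasgrp3 were 0.20 with LPS and -0.78 unstimulated. Those of Arhgap18 were 0.42 with LPS and 0.21 unstimulated, those of Gcnt1 0.22 with LPS and -0.06 unstimulated, and those of Abcd2 0.18 in both treatments, all given as descriptions.

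The order of the 4 groups was the same for Gcnt1 and Rasgrp3, with WT unstimulated highest, then KO unstimulated, KO LPS and WT LPS. For Arhgap18 and Abcd2 the KO unstimulated mean was the highest and WT unstimulated came next. Neighbours of the same treatment overlapped in their arrays and so had no clear order. The exception was Arhgap18 with LPS, which is left as a description because the WT LPS arrays took part in the selection.

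Across the 16 arrays the 4 genes correlated pairwise at Pearson r of 0.934 to 0.993, values that describe mainly the shared gap between treatments. After each array was set against its group mean, r ranged from -0.47 for Rasgrp3 with Arhgap18 to 0.38 for Gcnt1 with Abcd2. Genes on the same arrays share hybridisation and RNA, and these values are descriptions. The named genes with the most similar pattern to Gcnt1 were Daglb, a diacylglycerol lipase (r = 0.997), St6gal1, a sialyltransferase (0.995), and Zfp652 (0.994). St6gal1 had differences of -2.97 in KO cells and -3.26 in WT cells, and Zfp652 had -1.38 in KO cells and -1.40 in WT cells. For Rasgrp3 the most similar were Slc8b1, a mitochondrial sodium-calcium exchanger, Slc66a2 and Cryz, each at 0.976. These genes fell less than Rasgrp3, since r does not measure size. Their differences were -1.22, -0.83 and -0.48 in KO cells and -1.30, -0.94 and -0.57 in WT cells. For Arhgap18 the most similar were Arhgap19 (0.995), Ap1b1 (0.994) and Rab3il1 (0.993). Arhgap19, a GTPase-activating protein as well, had 6.47, 6.46, 6.60 and 6.55 in KO LPS arrays, against 8.91, 9.08, 9.17 and 9.08 in KO unstimulated arrays, a difference of -2.54 (limma adjusted p = 3.07e-11). In WT cells it had 6.17, 6.18, 6.19 and 5.97 with LPS, against 8.74, 8.99, 8.75 and 9.40 unstimulated, a difference of -2.84. Its KO LPS arrays all lay above its WT LPS arrays, an order whose share of all genes was not determined. That difference of 0.39 was not called (limma adjusted p = 0.107), nor was the difference in response of 0.30 (adjusted p = 0.624). For Abcd2 the most similar were Gcnt1, Mfsd6 (both 0.991) and Engase (0.990).

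None of the measured relatives of Gcnt1 was called lower with LPS in either genotype. Gcnt2, which makes branches of another glycan type, was 0.41 higher on the log2 scale with LPS in KO cells (SE 0.09, limma adjusted p = 0.00217) and 0.53 higher in WT cells (adjusted p = 0.000165). Gcnt3, Gcnt4 and Gcnt7 had differences of -0.08, -0.09 and -0.14 in KO cells and -0.02, 0.09 and -0.03 in WT cells, and none passed the test. Unstimulated, Gcnt2 averaged 6.31 in KO and 6.16 in WT cells. Over the groups, means were 6.56 to 6.64 for Gcnt3, 4.83 to 4.94 for Gcnt4 and 6.66 to 6.92 for Gcnt7. These signals were near or below the array medians of 6.76 to 6.86, where a fall may not be seen.

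Rasgrp1, the exchange factor known from T-cell receptor signalling, moved opposite to Rasgrp3. Its signals were 12.10, 12.17, 12.21 and 11.94 in KO LPS arrays, against 7.89, 8.90, 8.86 and 8.66 in KO unstimulated arrays. In WT cells they were 12.01, 12.25, 12.20 and 12.04 with LPS, against 8.38, 8.89, 8.39 and 8.38 unstimulated. The arrays of the 2 treatments did not overlap in either genotype. Rasgrp1 rose by 3.53 in KO cells (SE 0.18, 11.5-fold, limma adjusted p = 5.11e-11) and by 3.61 in WT cells (12.3-fold, adjusted p = 2.05e-11). The Rasgrp1 window printed above holds the same PU.1 core as those of the 3 genes that fell.

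**Figure D3:**
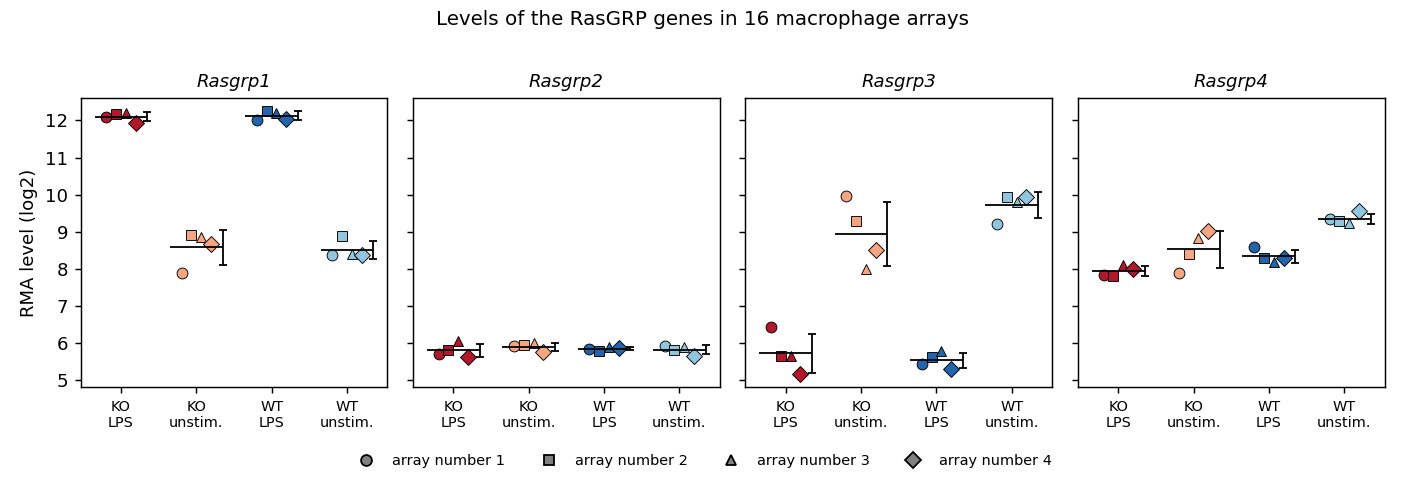
Log2 signal (vertical axis) of the 4 RasGRP genes in each of 16 arrays, 4 per group, in the order KO LPS, KO unstimulated, WT LPS and WT unstimulated; points are arrays, horizontal lines are group means and vertical bars are SDs. With LPS, Rasgrp1 arrays lie at 11.94 to 12.25 and Rasgrp3 arrays at 5.16 to 6.44, each apart from the unstimulated arrays of the same gene; signals of different genes are not compared.

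Rasgrp4, a relative found in mast cells and other myeloid cells, had 7.83, 7.81, 8.10 and 8.01 in KO LPS arrays, against 7.88, 8.39, 8.82 and 9.01 in KO unstimulated arrays. In WT cells it had 8.59, 8.30, 8.18 and 8.29 with LPS, against 9.33, 9.28, 9.24 and 9.55 unstimulated. It fell by 1.01 in WT cells (limma adjusted p = 0.000176). In KO cells it fell by 0.59 (adjusted p = 0.0191), a call lost over arrays numbered 1 to 3 (-0.45, adjusted p = 0.108), over KO arrays alone, and without KO LPS array 1 or 2 or KO unstimulated array 3 or 4. Averaged over treatments it was 0.62 lower in KO than in WT cells (adjusted p = 0.0115). This call was lost with a sex term in the fit (difference of -0.34, limma adjusted p = 0.289). Over the 10 arrays with Xist above Kdm5d the difference was the same -0.34. Both estimates rest on the KO arrays numbered 4 and are not separate checks. Rasgrp2, known from platelets, had differences of -0.10 in KO cells and 0.03 in WT cells, and neither passed the test. Its group means were 5.80 to 5.90, below the array medians, where a fall may not be seen.

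Of the relatives of Abcd2, Abcd4, a transporter involved in cobalamin handling in lysosomes, fell by 0.43 in KO cells (SE 0.12, limma adjusted p = 0.0119) and by 0.51 in WT cells (adjusted p = 0.00235). The KO call was lost over arrays numbered 1 to 3 (-0.36, adjusted p = 0.0651). Abcd3, another peroxisomal transporter, had -0.18 in KO cells and -0.22 in WT cells, without passing the test.

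The genes that work beside the 4 were counted from lists that leave the 4 genes out. Across all genes the median LPS difference was 0.01 in KO cells and 0.06 in WT cells. Counts are limma calls, to be read against 12.7% lower and 12% higher of all genes in KO cells and 16.8% lower and 14% higher in WT cells, and all differences are on the log2 scale. The lists were chosen with results of these data known.

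Of 38 genes of mucin-type O-glycan synthesis, 8 were lower and 8 higher with LPS in KO cells, and 11 were lower and 6 higher in WT cells, with medians of -0.04 in KO and 0.01 in WT cells. St3gal1, which caps O-glycans with sialic acid, was 1.21 higher in KO cells (adjusted p = 1.02e-07), and St6galnac2, another sialyltransferase, was 1.61 higher (adjusted p = 1.94e-06). Spn, the leukocyte sialoprotein that carries many O-glycans, was 1.20 higher in KO cells (adjusted p = 2.42e-07). B3gnt2, which extends lactosamine chains, was 0.99 higher. In WT cells St3gal1 was 1.26, St6galnac2 1.56, Spn 1.07 and B3gnt2 0.90 higher. The 8 lower genes in KO cells became 5 without KO unstimulated array 2 or KO LPS array 3.

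Of 36 regulators of Ras and Rap, 16 were higher and 8 lower with LPS in KO cells, and 15 were higher and 7 lower in WT cells, with medians of 0.11 in KO and 0.20 in WT cells. Beside Rasgrp1, the Ras relative Rras2 was 3.61 higher in KO cells (adjusted p = 1.38e-10) and 3.63 higher in WT cells. Rapgef2, an exchange factor for Rap, was 2.19 higher in KO cells and 2.08 higher in WT cells. Rasa3, which switches Ras and Rap off, fell in both genotypes. It had 8.67, 8.88, 8.56 and 8.46 in KO LPS arrays, against 10.37, 10.72, 10.60 and 10.66 in KO unstimulated arrays. In WT cells it had 7.77, 7.38, 7.79 and 7.76 with LPS, against 10.50, 10.54, 10.49 and 10.65 unstimulated. The KO LPS arrays all lay above the WT LPS arrays, an order whose share of all genes was not determined. The unstimulated arrays of Rasa3 overlapped. Its LPS difference was -1.95 in KO cells and -2.87 in WT cells, and the difference between them of 0.93 (SE 0.16) passed the limma test of the interaction (adjusted p = 0.00983), as 0.988% of all genes did in that direction and 0.301% in the other. The 8 lower genes of the list in KO cells became 5 to 7 whenever a single KO array was left out. The count was 5 without KO LPS array 2 or KO unstimulated array 3.

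Of 23 genes of diacylglycerol signalling, the lipid signal that recruits RasGRP proteins, 6 were lower and 4 higher with LPS in KO cells, and 8 were lower and 5 higher in WT cells, with medians of -0.02 in KO and 0.03 in WT cells. The diacylglycerol kinases moved both ways, since Dgkh was 1.97 higher in KO and 2.08 higher in WT cells, while Dgkz changed by -1.498 in KO and -1.62 in WT cells. Plcb2, a phospholipase that makes diacylglycerol, changed by -1.53 in KO and -2.24 in WT cells. Prkcd, a kinase that diacylglycerol activates, was 0.64 higher in KO cells and 0.93 higher in WT cells. The 4 higher genes in KO cells became 2 without KO unstimulated array 1 or KO LPS array 2, and the 5 in WT cells became 3 without WT unstimulated array 1.

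**Figure D4:**
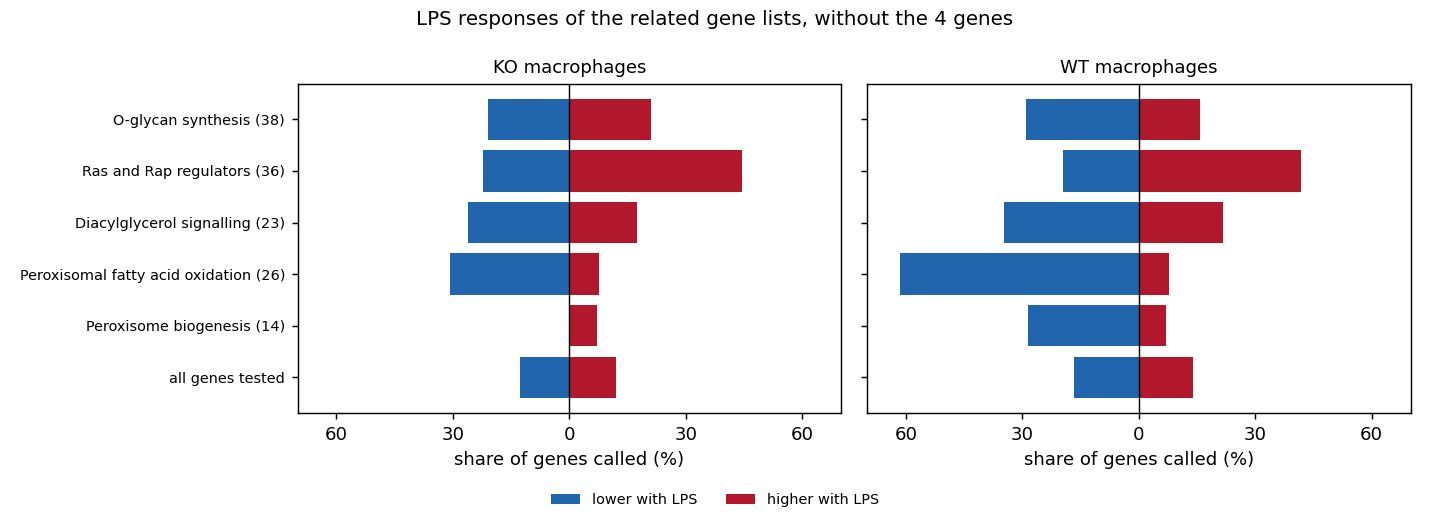
Share of the genes of 5 lists (horizontal axis, percent) called lower (left of 0) or higher (right of 0) with LPS by limma in KO and WT cells, without the 4 genes, with the number of measured genes in brackets and all 19937 genes in the last row. In WT cells 61.5% of the peroxisomal fatty acid oxidation genes were lower, against 16.8% of all genes, and in KO cells 44.4% of the Ras and Rap regulators were higher, against 12% of all genes.

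Of 26 other genes of peroxisomal fatty acid oxidation, 8 were lower and 2 higher with LPS in KO cells, and 16 were lower and 2 higher in WT cells, with medians of -0.32 in KO and -0.52 in WT cells. The 16 lower genes in WT cells became 14 to 15 whenever a single WT array was left out. Acox3, an oxidase of branched-chain acyl-CoA, changed by -1.81 in KO (adjusted p = 8.32e-10) and -2.21 in WT cells. Crot, which passes shortened acyl chains to carnitine, changed by -1.63 in KO and -2.03 in WT cells. The 2 that rose were Acsl5, an acyl-CoA synthetase, by 1.77 in KO and 1.65 in WT cells, and Eci2, an enoyl-CoA isomerase, by 1.36 in KO and 1.35 in WT cells. By the interaction test none of the 26 passed the adjusted threshold, as 0.988% of all genes did in the higher and 0.301% in the lower direction. At an unadjusted p below 0.05, 6 were higher and 0 lower. The share of all genes at that unadjusted level was not determined, so nothing is read from these counts.

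Of 14 genes of peroxisome biogenesis, 0 were lower and 1 was higher with LPS in KO cells by limma, and 4 were lower and 1 higher in WT cells. At an unadjusted p below 0.05, 3 were lower and 2 higher in KO cells, and the matching share of all genes was not determined. The medians were -0.09 in KO and -0.24 in WT cells. Pex16, which helps to insert peroxisomal membrane proteins, was 0.60 higher in KO and 0.61 higher in WT cells. Pex19, a receptor for those proteins, had -0.24 in KO cells (adjusted p = 0.0815) and fell by 0.63 in WT cells. Pex14, part of the import pore, had 0.24 in KO and 0.12 in WT cells, without passing the test. Pex6, which recycles the import receptor, had -0.19 in KO cells and fell by 0.28 in WT cells, a call lost without WT unstimulated array 3 or 4 or WT LPS array 4. The 0 lower genes in KO cells became 2 without KO unstimulated array 1 and 1 without KO unstimulated array 4, and the 4 in WT cells became 2 without WT unstimulated array 3 or 4.

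Markers of other cell types that a marrow culture could hold were set beside the falls. Of 39 listed markers of 7 cell types, 35 were measured. In KO cells 0 were lower with LPS by limma, also at an unadjusted p below 0.05, and 2 were higher, Xcr1 by 0.58 and Pf4 by 1.21. In WT cells 1 was lower, Cd4 by -0.61, and 5 were higher. At an unadjusted p below 0.05, 1 was lower and 9 were higher in WT cells, and the matching share of all genes was not determined. The B-cell markers, named here because Rasgrp3 is also used by B cells, had 5 of 6 members measured, with a mean signal of 5.74 to 5.92 in KO LPS arrays, against 5.78 to 5.88 in KO unstimulated arrays, and of 5.80 to 5.96 in WT LPS arrays, against 5.62 to 5.76 in WT unstimulated arrays. None of the 5 was called lower with LPS in either genotype, and Ms4a1 was called higher in WT cells (0.31, limma adjusted p = 0.0164). Unstimulated, the mean signals of the B-cell, T-cell, NK-cell, neutrophil and dendritic-cell lists lay below the array medians of 6.76 to 6.86. Markers that dim have little room to fall, so their counts say little. Loss of another cell type was not tested.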

How the data were processed

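Signals of 16 single-colour Affymetrix arrays were used as log2 values as deposited by the authors, made with RMA per the submitters' processing notes, which give no version. Nothing further was normalised. Probe sets were named from the platform annotation: 21640 had 1 gene symbol, 1321 had several and 11799 were not listed and were left out. Where a gene had several probe sets, the one with the highest mean over 16 arrays was used, which left 19937 genes.

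Groups were taken from the labels' genotype and treatment. limma 3.58.1 in R 4.3.3 (lmFit, eBayes) was fitted to all 16 arrays with 1 mean per group, p-values were adjusted by Benjamini-Hochberg over 19937 genes, and the fit was tested on simulated data. Contrasts were the LPS response in each genotype, the genotype average and the difference in response. The 4 genes and all lists were chosen with earlier results of these data known. Named were the 4 genes, their measured family members, the 3 genes most correlated with each, up to 4 genes per list with the smallest p for the KO response, and Nfat5. Genes that neighbour the 4 in the ranking, and markers that passed the test, were named after their values were seen.

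Array numbers were checked for pairing by correlating deviations from group means. Same-numbered KO and WT arrays correlated at 0.16 to 0.442 unstimulated and 0.186 to 0.518 with LPS, so the numbers may pair the genotypes. Differently numbered KO and WT arrays were not compared. The main fit held no term for such pairing, and a replicate block was run only as an alternative. LPS and unstimulated arrays were not taken as paired, since not every correlation in KO or WT cells was over 0.1. In KO cells, however, same-numbered LPS and unstimulated arrays matched in their sex transcripts, which was not used to judge pairing. Motifs and promoter windows come from RefSeq tables (GRCm38.p6), matched by symbol for 3 of the 4 genes. Alternatives were a replicate block, median centring, filters on low signals, a variance trend, all probe sets, a sex term, subsets of arrays and leaving out each array. Some related genes and lists are not reported here.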

Additional observations from a re-analysis of the deposited data

Results flagged for a closer look

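Of 204 groups of 4 arrays, over 51 genes, 9 held an array far from the other 3 by Dixon's criterion, which chance does in about 5% of groups. None of the 9 belonged to the 4 genes. Gcnt7 had 7.09 in KO LPS array 4, against 6.66 to 6.72 in the others, and 6.48 in WT unstimulated array 1, against 6.74 to 6.76. Rasgrp1 had 8.89 in WT unstimulated array 2, against 8.38 to 8.39. Abcd4 had 7.74 in KO unstimulated array 1, against 8.19 to 8.27. Rasa3 had 7.38 in WT LPS array 2, against 7.76 to 7.79, and Arhgap19 had 5.97 in WT LPS array 4, against 6.17 to 6.19. Pex14 had 9.13 in WT LPS array 1, against 8.95 to 8.98, and Ap1b1 had 8.65 in the same array, against 8.32 to 8.37. St6gal1 had 10.29 in WT unstimulated array 4, against 9.95 to 10.002.

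The LPS response of Rasa3 differed between genotypes by 0.93 (KO -1.95, WT -2.87) with a limma adjusted p of 0.00983. With each array left out the difference stayed between 0.83 and 0.99, with adjusted p up to 0.0258. In settings chosen after seeing the data it was 1.01 over arrays numbered 1 to 3 (limma adjusted p = 0.0268) and 0.93 with a sex term (limma adjusted p = 0.0085). The sex term could not change the size of this difference, since both KO groups hold the same mix by the sex transcripts.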

How the results depend on the processing

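The KO LPS responses of the 4 genes kept their direction and their call under all 17 alternatives run for each. The replicate block, low-signal filters, variance trend, sex term, KO arrays alone and all probe sets left the size unchanged by construction. Only the call could change in those settings. With single arrays left out the responses ranged from -3.89 to -3.81 for Gcnt1, -3.53 to -2.87 for Rasgrp3, -3.58 to -3.34 for Arhgap18 and -3.61 to -3.38 for Abcd2. Genes called with LPS in KO cells were 2525 lower and 2394 higher, against 2156 lower and 2779 higher with median centring. The genotype average of Arhgap18 ranged from 0.25 to 0.37 with single arrays left out. Genes lower by genotype average, 254 in all, numbered 396 with a sex term, 144 over arrays with Xist above Kdm5d, 165 over all probe sets and 186 to 281 with single arrays left out. Genes higher, 168 in all, numbered 357 with a sex term, 102 over all probe sets and 112 to 222 with single arrays left out. Values near 0 that changed sign when an array was left out ranged from -0.070 to 0.042 for Gcnt3, -0.092 to 0.0062 for Gcnt7 and -0.024 to 0.066 for Rasgrp2 in WT cells, and from -0.18 to 0.064 for Gcnt4 and -0.29 to 0.016 for Abcd3 in KO cells. The cause was not tested.

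With a replicate block the genotype average called 423 genes lower and 298 higher, and changed the call of none of the 4 genes, Arhgap18 keeping 0.32 (limma adjusted p = 0.103). For the LPS response in KO cells the block called 2878 lower and 2746 higher. There same-numbered arrays correlated at -0.06, 0.43, 0.14 and 0.56, and 4 of 8 arrays correlated best with their own number. In WT cells they correlated at 0.05, 0.41, 0.43 and 0.25, and 6 of 8 arrays did so, a hint of pairing that comes from the data and not from the design.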
